A study of Mus musculus with 6 samples.

Results

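The genes described here are 9 matrix metalloproteinases, Mmp2, Mmp3, Mmp7, Mmp8, Mmp9, Mmp10, Mmp12, Mmp13 and Mmp14, and Timp1, the gene of a secreted inhibitor of most of them. They were taken by name, with earlier results of these data known. Every array probe whose RefSeq transcript led to one of these symbols was used, whatever its signal. That gave 10 genes on 14 probes, out of 23462 named genes and 56605 probes on the array. RNA came from the colon of male mice, 3 labelled as controls and 3 labelled as Islr knockout, with 1 single-colour Agilent array per mouse. Per the source label every animal, controls included, drank 3.5% dextran sulfate sodium (DSS, a detergent-like polymer that injures the colonic epithelium) over 5 days and then recovered over 1 day. In the same labels the treatment field reads as untreated, and no group without DSS was analysed here. The strain, the age, the allele, any Cre driver and the genotype behind the word control are not given in the sources used here. The series text speaks of samples separated by flow, with no cell population named. All 12 epithelial and all 8 smooth muscle markers on the lists were well above background on all 6 arrays, which is not particular to colon. So were 5 of the 6 Paneth cell and 5 of the 7 squamous epithelium markers on the array. All 6 arrays sat on the same slide, the controls in 1 row and the knockouts in the other, so that slide row and genotype cannot be told apart.

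Matrix metalloproteinases are zinc-dependent proteases that are secreted, or held in the membrane, as pro-enzymes and become active once their inhibitory prodomain is cut away. Between them they cleave fibrillar collagens, basement membrane, elastin, chemokines and other pro-enzymes, and TIMP proteins bind the active enzymes and block them. In the injured gut they are made by stromal fibroblasts, infiltrating neutrophils and macrophages and epithelial cells at the wound edge. The product of Islr is a secreted protein with leucine-rich repeats and serves as a marker of mesenchymal stromal cells.

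Several inducible metalloproteinase promoters are known for a binding site of AP-1, the Fos and Jun transcription factors, close to the TATA box. The 250 bases before each RefSeq start (build GRCm38.p6) were therefore searched for the letters TGAGTCA, which read TGACTCA on the other strand. Promoter windows were held for 8 of the 10 genes, all but Mmp2 and Mmp9, and 5 of the 8 had a match, against 5.16% of 27025 genes in the same table. The 5 are shown because their matches lie within 63 bases of the start. Each sequence is the 100 bases before the start on the plus strand, written 5′ to 3′, with the match in capitals. Mmp13 is at chr9:7272414-7272513, Mmp12 at chr9:7347274-7347373, Mmp3 at chr9:7445722-7445821, Mmp10 at chr9:7502242-7502341 and Mmp7 at chr9:7691990-7692089.
Mmp13: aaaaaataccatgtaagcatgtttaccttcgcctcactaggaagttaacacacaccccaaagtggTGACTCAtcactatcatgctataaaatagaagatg
Mmp12: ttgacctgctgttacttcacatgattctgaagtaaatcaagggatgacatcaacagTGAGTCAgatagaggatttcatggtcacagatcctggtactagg
Mmp3: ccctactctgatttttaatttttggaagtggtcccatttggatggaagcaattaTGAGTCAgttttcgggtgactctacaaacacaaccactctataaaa
Mmp10: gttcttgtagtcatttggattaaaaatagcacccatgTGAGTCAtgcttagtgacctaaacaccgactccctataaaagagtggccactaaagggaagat
Mmp7: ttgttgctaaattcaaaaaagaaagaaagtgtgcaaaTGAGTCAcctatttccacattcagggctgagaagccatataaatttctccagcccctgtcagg

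The match begins 35 bases before the start in Mmp13, 44 in Mmp12, 46 in Mmp3 and 63 in both Mmp10 and Mmp7. Mmp12 and Mmp7 each have a further window in the table, and neither of those held the letters. No match was found in the windows of Mmp8, Mmp14 and Timp1, which says only that these letters are not in those windows. Among the 5 genes with a match, Mmp7 had higher means in the knockouts and the others had lower means, but only Mmp12 passed the test given below. The groups overlapped for Mmp7, Mmp3 and Mmp10 did not pass, and Mmp13 could not be tested. The part of these letters in the differences was not tested.

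For 9 of these 10 genes, all but Mmp7, every Islr knockout colon gave a lower level than every control colon, which held for 18.8% of the 17865 named genes that could be compared in this way. Mmp8 (neutrophil collagenase), Mmp14 (the membrane-bound activator of pro-MMP2), Mmp2 and Mmp9 (the gelatinases) fell by 1.99 to 3.85 on the log2 scale, and Mmp12 (macrophage elastase) fell by at least 2.46-fold. Mmp10 and Mmp3 (the stromelysins) and Timp1 had differences of -2.23 to -3.62 on that scale, with a wide spread between the knockout mice, and none of the 3 passed the test. Mmp13 (collagenase-3) had too few usable spots to be tested; with outlier spots kept, its difference was -4.21. Mmp7 (matrilysin), an epithelial protease, had a knockout mean that was higher by 1.01, also without passing the test. Levels are the deposited processed signals, an intensity on a linear scale. Differences are of log2 signals relative to the 75th percentile of each array, knockout minus control, tested with limma over all tested probes. A gene is called where the Benjamini-Hochberg adjusted p is under 0.05.

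Of the 14 probes 12 could be tested and 6 were called, against 3.97% of the 35351 probes tested on the array. Taking each gene by its brightest tested probe, 5 of 9 genes tested were called lower and none higher, against 2.46% of 16451 named genes called lower and 1.35% called higher. The median difference of the 9 genes was -2.62, or -2.23 with Mmp12 at its lower bound, against 0.01 over those 16451 genes. Mmp8, Mmp9 and Mmp12 passed the filter on dim probes through the controls alone and Mmp7 through the knockouts alone. Where all 6 arrays had to be well above background, the called genes were Mmp2 and Mmp14. The count of 9 genes without overlap keeps the spots that the scanner software marked as outliers, as does its background. On the same basis those 9 genes had knockout means lower by at least 2 on the log2 scale, against 1.34% of the named genes. With 3 arrays a group, an exact two-sided permutation test on 1 gene cannot give a p below 0.1. Because the genes were chosen with earlier results of these data known, the shares set beside them are description and not a test.

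**Figure D1:**
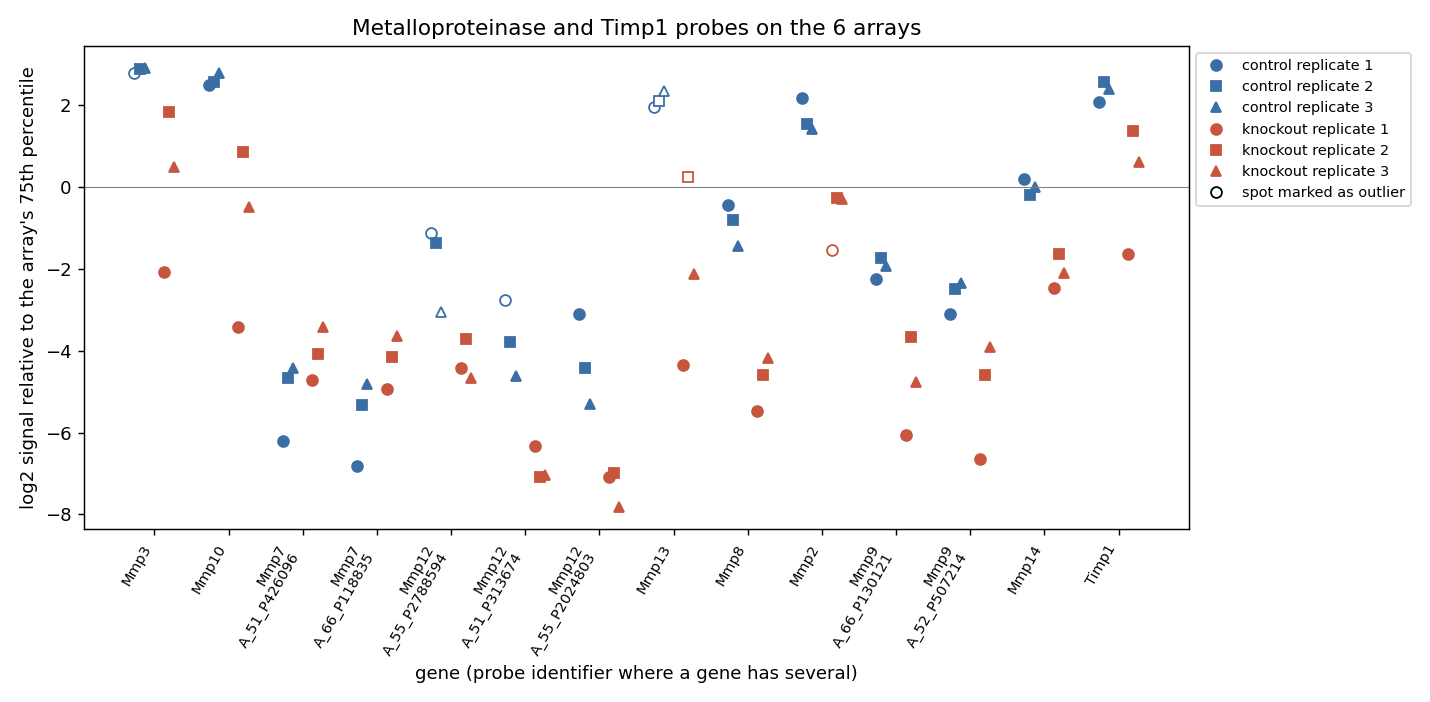
Log2 signal relative to the 75th percentile of each array (vertical axis) for the 14 probes of the 10 genes (horizontal axis); blue marks the 3 controls, red the 3 knockouts, the shape the replicate, and open symbols spots marked as outliers. The controls of Mmp3, Mmp10, Mmp13 and Timp1 sit close together while the knockouts spread over 3.00 to 4.58, and Mmp7 is the gene whose knockouts are not below its controls.

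Islr, the targeted gene, had a level of 1.23 ± 0.02 (SD, 2 usable arrays) in controls and -1.21 ± 0.25 (SD, n = 3) in knockouts. This was a fall of 2.44 (SE 0.21, limma adjusted p = 0.0171). Leaving out knockout 3 ended that call (adjusted p = 0.0580). The Islr probe stayed well above background on all 3 knockout arrays (1862, 3057 and 2327). Islr marks stromal cells, and the fibroblast marker sum given below was also lower in all knockouts. The fall of Islr therefore cannot by itself check the genotype labels. Over the whole array 1403 probes were called, 855 lower and 548 higher, and with normexp background correction 1256 lower and 1289 higher. The 75th percentile of the raw signal was 6353 to 7110 in controls and 4911 to 5820 in knockouts, and no spot was saturated. Outlier marks covered 3.26% to 15.99% of spots, and 10.69% to 56.8% of the brightest 10th of spots. They were most frequent in knockout 1 and then in control 1, and 9 of the 84 spots of the genes described here carried one. The limma p-values set each difference between groups against the spread between mice of the same group, an estimate that also draws on all tested probes. Any effect of slide row is part of that difference.

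The stromelysins Mmp3 and Mmp10 cleave proteoglycans, fibronectin and basement membrane and can activate other pro-enzymes. Mmp3 gave 43866 (an outlier spot), 52213 and 48978 in controls 1 to 3 and 1171, 20541 and 8069 in knockouts 1 to 3. Mmp10 gave 35401, 42083 and 45124 in controls and 461, 10567 and 4115 in knockouts. In both genes the controls lay close together, every knockout lay below every control, and knockout 1 lay far below the other 2.
The difference for Mmp3 was -2.81 (SE 1.08, 95% confidence interval -5.50 to -0.12, limma adjusted p = 0.172), or 7.02-fold. For Mmp10 it was -3.62 (SE 0.99, 95% confidence interval -5.98 to -1.26, limma adjusted p = 0.0820), or 12.3-fold. Neither passed the threshold. Without knockout 1 the Mmp3 difference shrank to -1.74 and that of Mmp10 to -2.42; without knockout 2 that of Mmp10 was -4.56 and was called (adjusted p = 0.0450).

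The collagenases cut the triple helix of fibrillar collagen. Mmp8, stored in neutrophil granules, gave 4663, 4085 and 2399 in the control mice. It gave 111, 240.3 and 317 in the knockout mice, of which knockout 1 was not well above background. Every knockout signal was far below the dimmest control. Mmp8 fell by 3.85 (SE 0.39, 95% confidence interval -4.79 to -2.92, limma adjusted p = 0.0171), which is 14.5-fold, and the gap between the lowest control and the highest knockout, 2.74, was the widest of the 10 genes. Its call held in 5 of the 6 fits that left out 1 array and was lost without control 2 (adjusted p = 0.0569).
Mmp13, the other interstitial collagenase, gave 24347, 30446 and 33378 in controls, and 242, 6828 and 1311 in knockouts. All 3 control spots and that of knockout 2 were marked as outliers, so the gene had no usable control value and was not tested. With those spots kept, the levels were 2.13 ± 0.21 (SD, n = 3) in controls and -2.08 ± 2.29 (SD, n = 3) in knockouts. The difference of -4.21 (SE 1.03, limma adjusted p = 0.0638) was the largest of the 10 genes and was not called; without knockout 1 it was -3.08.

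The gelatinases digest denatured collagen and the collagen of basement membranes. Mmp2, typical of fibroblasts, gave 28381, 20637 and 17269 in controls and 1681 (an outlier spot), 4812 and 4695 in knockouts. The groups were well apart, and knockouts 2 and 3 were nearly equal. Mmp2 fell by 1.99 (SE 0.27, limma adjusted p = 0.0335, 2 usable knockout arrays), a 3.96-fold fall, and by 2.41 with the outlier spot kept (adjusted p = 0.0317). Its call was lost without control 2, control 3 or knockout 1 (adjusted p 0.0512 to 0.0892) and could not be tested without knockout 2 or knockout 3.
Mmp9, typical of neutrophils and macrophages, was read by 2 probes. The brighter (A_66_P130121) gave 1345, 2143 and 1727 in controls, and 73.8 (not well above background), 458 and 213 in knockouts. The dimmer (A_52_P507214) gave 741, 1261 and 1293 in controls and 49.0 (not well above background), 242 and 383 in knockouts. Both put all knockouts below all controls, with knockout 1 the lowest. The brighter probe fell by 2.86 (SE 0.56, limma adjusted p = 0.0468), which is 7.28-fold, whereas the dimmer differed by -2.41 (SE 0.68, adjusted p = 0.0862) and did not pass. The call of the brighter probe held without knockout 2 and was lost without any other array (adjusted p 0.0559 to 0.128).

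Mmp14 encodes the membrane-anchored MT1-MMP, which cuts collagen at the cell surface and activates pro-MMP2. It gave 7244, 6225 and 6557 in controls and 884, 1882 and 1333 in knockouts. Both groups were tight, and the highest knockout lay 1.44 below the lowest control on the log2 scale. Mmp14 fell by 2.07 (SE 0.25, 95% confidence interval -2.66 to -1.49, limma adjusted p = 0.0233), a 4.21-fold fall. The call was lost without control 2, control 3 or knockout 3 (adjusted p 0.0633 to 0.0682) and held in the other three such fits.

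Mmp12, the macrophage elastase, was read by 3 probes that all put the knockouts below the controls. The brightest (A_55_P2788594) gave 2923, 2769 and 793 in controls, of which controls 1 and 3 were outlier spots, and 228, 442 and 227 in knockouts. It was not tested, and with outliers kept its difference was -2.43 (limma adjusted p = 0.0520). Control 3 was the lowest control on each Mmp12 probe, so that the controls spread more than the knockouts here.
Neither of the other probes was well above background on any knockout array, so their folds are lower bounds against the lowest signal that counted as well above background. Probe A_51_P313674 went from -4.21 ± 0.60 (SD, 2 usable arrays) to -6.82 ± 0.42 (SD, n = 3), at least 2.46-fold lower (limma adjusted p = 0.0339). Probe A_55_P2024803 went from -4.28 ± 1.1 to -7.30 ± 0.45 (SD, n = 3 each), at least 2.34-fold lower (limma adjusted p = 0.0426). Among the fits that left out 1 array, each of these 2 calls held without control 1, and in none of the others that could be tested.

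Mmp7, or matrilysin, is made by epithelial cells and in the small intestine activates the defensins of Paneth cells. Probe A_51_P426096 gave 86.2, 280.3 and 307 in controls and 185, 342 and 539 in knockouts, and probe A_66_P118835 gave 56.5, 176 and 231 in controls and 162, 326 and 459 in knockouts. Control 1 was the lowest array on both probes and not well above background, and the groups overlapped on both. The knockout means were higher by 1.01 (SE 0.54, limma adjusted p = 0.278) and 1.41 (SE 0.56, adjusted p = 0.167), and neither was called. Leaving out control 1 brought the first of these to 0.46.

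Timp1 encodes the inducible, secreted inhibitor of most of these enzymes. Its probe gave 26522, 41924 and 34480 in controls but 1576, 14924 and 8835 in knockouts. The highest knockout lay 0.70 below the lowest control on the log2 scale, and knockout 1 lay well below the other 2. The difference was -2.23 (SE 0.72, 95% confidence interval -3.95 to -0.51), a 4.69-fold difference that did not pass (limma adjusted p = 0.112), and without knockout 1 it was -1.35. When arrays were weighted by their quality, 20.7% of all probes tested were called. Among them were Timp1 (adjusted p = 0.0373), Mmp10 (0.0260) and the dimmer Mmp9 probe (0.0292).

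**Figure D2:**
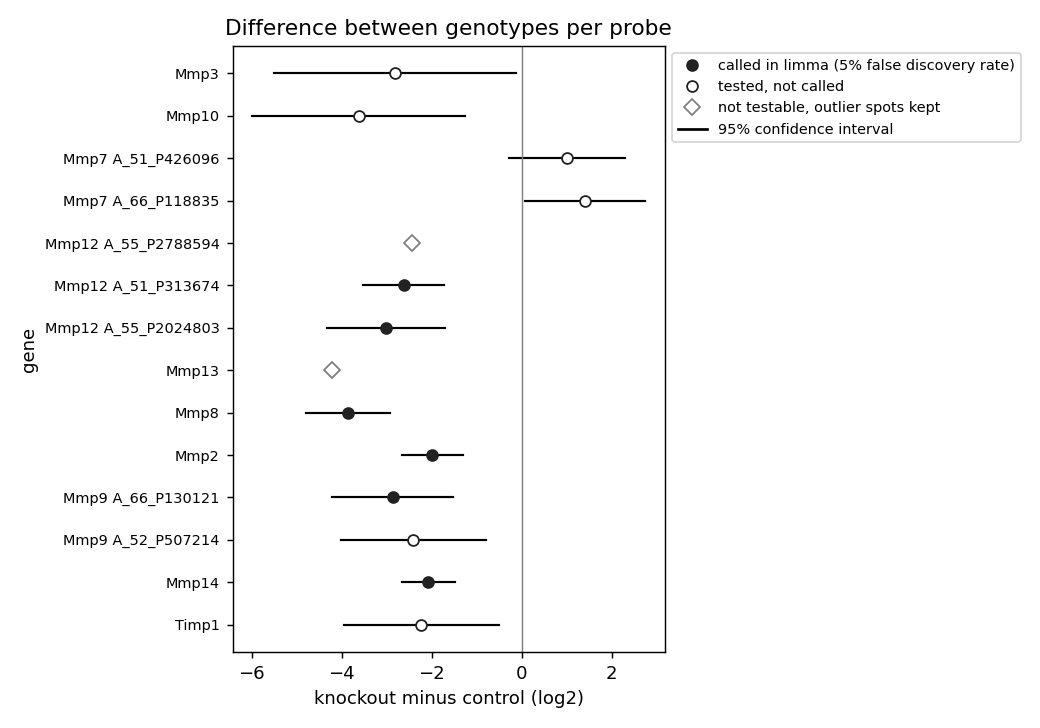
Difference in log2 signal, knockout minus control (horizontal axis), with its 95% confidence interval for each of the 14 probes (vertical axis); filled circles passed the test, open circles did not, and diamonds are the 2 probes that could only be compared with outlier spots kept. The intervals of Mmp3, Mmp10 and Timp1 are wide and lie below 0, and those of Mmp8 and Mmp14 are narrow.

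The 3 knockout mice kept a similar order over most of these genes. With outlier spots kept and each gene taken by its brightest probe, knockout 1 was the lowest of all 6 arrays for 8 of the 10 genes. Knockout 2 was the highest knockout for 8 of them. The exceptions for the lowest array were Mmp12, whose lowest array was knockout 3, and Mmp7, whose lowest array was control 1.
The knockouts spread over 4.58 for Mmp13, 4.27 for Mmp10, 3.89 for Mmp3 and 3.00 for Timp1. Those 4 genes had control ranges of 0.12 to 0.50. The knockouts spread over 0.84 for Mmp14, 0.95 for Mmp12, 1.27 for Mmp2 and 1.28 for Mmp8. Knockout 1 was also the array with the most outlier spots and the lowest raw 75th percentile; the part of either in this order was not tested.

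Each protease was also set against Timp1 within the same array, as a log2 ratio of their signals, since TIMP1 is an inhibitor of most of these enzymes. Only the change of a ratio between groups is read here, not its size, because probes differ in brightness. The ratio to Timp1 differed by -1.99 for Mmp13, -1.39 for Mmp10 and -0.63 for Mmp9, lower in all knockouts than in all controls. For Mmp9 this did not hold with normexp background correction (-0.02, exact permutation p = 1), nor with quantile normalization (-0.58, exact permutation p = 0.3). That of Mmp7 differed by 3.24, higher in all knockouts. Each gave an exact two-sided permutation p of 0.1, the smallest that 3 against 3 allows (0.225 adjusted over the 9 ratios). The ratios of Mmp8 (-1.63) and Mmp3 (-0.55) overlapped between groups (p = 0.2 each in the same exact test). Those of Mmp12 (-0.20), Mmp2 (-0.18) and Mmp14 (0.16) overlapped as well (exact p of 1 and 0.9), and the sign of these 3 turned when single arrays were left out.

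**Figure D3:**
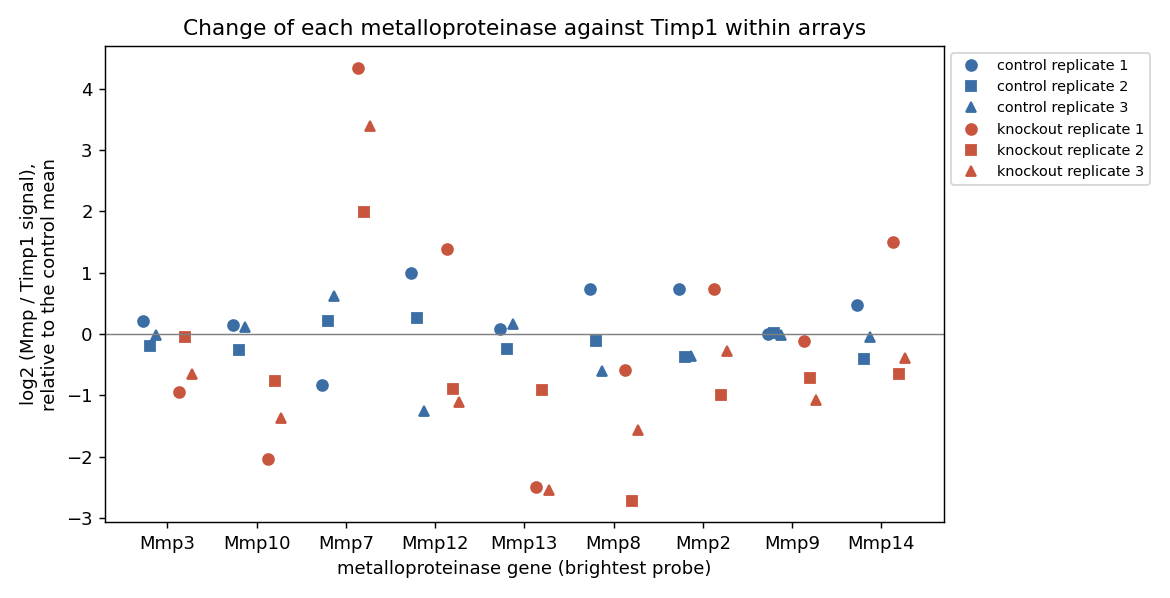
Log2 ratio of each protease to Timp1 on the same array, less the mean of the 3 controls (vertical axis), for 9 proteases (horizontal axis) with outlier spots kept. Mmp7 lies 1.99 to 4.34 above the control mean in the knockouts, Mmp13 lies 0.92 to 2.54 below it, and Mmp2, Mmp12 and Mmp14 straddle it.

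Of the 10 genes, 6 lie in a single run of 10 metalloproteinase genes on chromosome 9, in the RefSeq order (GRCm38.p6) Mmp13, Mmp12, Mmp1b, Mmp3, Mmp1a, Mmp10, Mmp8, Mmp27, Mmp20 and Mmp7. With outlier spots kept, the differences along the run were -4.21 for Mmp13, -2.43 for Mmp12, -2.78 for Mmp3, -3.62 for Mmp10 and -3.85 for Mmp8. Mmp7, at the far end, had a difference of 1.01. Mmp27 was not well above background on any knockout array and was at least 3.01-fold lower, without a call (limma adjusted p = 0.123). Mmp1a and Mmp20 were not well above background on any array, and Mmp1b was so on 1 control array.
The nearest protein-coding genes outside the run had smaller differences. Dync2h1 and Dcun1d5 on the Mmp13 side differed by -0.52 and 0.05, and Tmem123, Birc2 and Birc3 on the Mmp7 side by -0.53, -0.37 and -0.48. None of these 5 was called (adjusted p 0.0969 to 0.859 with outlier spots kept). Ddi1, the third gene on the Mmp13 side, was not well above background on any array. Mmp14 on chromosome 14, Mmp9 on chromosome 2 and Timp1 on chromosome X lie outside the run, as does Mmp2, and differed by -2.07, -2.86, -2.23 and -2.41 in that order on the same scale.

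**Figure D4:**
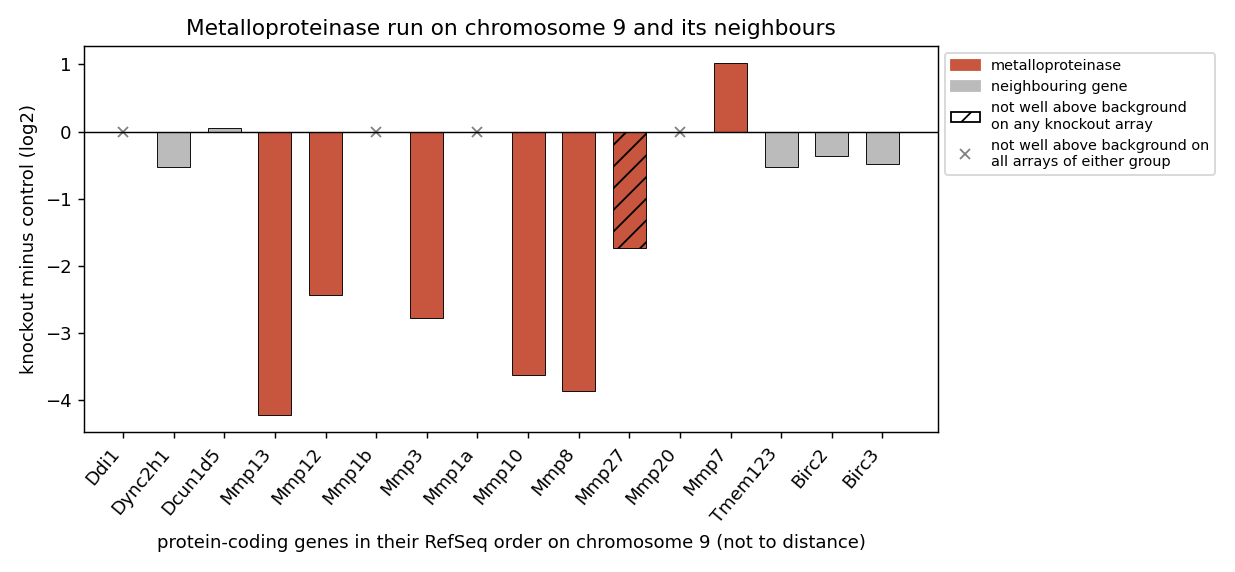
Difference in log2 signal, knockout minus control with outlier spots kept (vertical axis), for the protein-coding genes of the chromosome 9 run and 3 genes on each side in RefSeq order (horizontal axis, not to distance). Bars of Mmp13, Mmp12, Mmp3, Mmp10 and Mmp8 reach from -2.43 to -4.21, Mmp7 stands at 1.01 and the 5 neighbouring genes drawn with a bar lie between -0.53 and 0.05; crosses mark genes not well above background.

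The named genes whose 6 array values ran most like each gene were found by the root mean square difference of log2 values, each gene centred on its own mean, over 17864 other genes. Mmp10 and Mmp13 were each other's nearest metalloproteinase (0.424); Nppc, a natriuretic peptide gene, was the nearest of all to Mmp10 (0.417) and Il11, a stromal cytokine gene, the next after Mmp13 (0.424). Mmp13 was followed by Wfdc12 (0.548) and Nppc (0.626). Mmp3 was nearest to Tmem100 (0.249), Morrbid (0.332), Dkk2 (0.363) and then Timp1 (0.397), and Timp1 was nearest to Morrbid (0.210), Rasl11a (0.223) and Il33 (0.231), the gene of an alarmin cytokine.
Mmp8 was nearest to Mirt2 (0.226), Serpina3j (0.325) and Chil3 (0.332), and Mmp9 to Slit3 (0.215), Fst (0.243) and Prg4 (0.259). Mmp14 was nearest to Gm34613 (0.149), Lcn2 (0.156) and Irak3 (0.164), and Mmp2 to Fndc1 (0.150), Pde7b (0.151) and Igfbp4 (0.158). Mmp12 was nearest to Depp1 (0.255), Ppef2 (0.369) and F630028O10Rik (0.392), and Mmp7 to Gm45918 (0.240), Fam166a (0.290) and Gtsf1l (0.296). All of these values share the same 6 arrays and describe likeness only.

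Among the 14 other metalloproteinases on the array, 10 were tested, 6 were lower and 4 higher, none was called, and the median difference was -0.17. The largest differences measured in both groups were those of Mmp19 (-1.81, limma adjusted p = 0.0739) and Mmp15, a membrane-type enzyme (1.47, adjusted p = 0.114), while Mmp27 has only the bound given above. The list drawn up as other inhibitors held 8 genes, among them Pcolce, whose product is known mainly as an enhancer of procollagen processing. From this list 5 genes were tested, 4 lower and 1 higher with none called and a median of -0.28. The largest differences among them were those of the broad protease trap A2m (-1.13, adjusted p = 0.219), Pcolce (-0.76, adjusted p = 0.132) and Timp4 (0.30, adjusted p = 0.299). Timp2, the TIMP that helps MT1-MMP activate pro-MMP2, differed by -0.28 (adjusted p = 0.330).

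The list of pro-enzyme activators and surface partners held 17 genes, of which 14 were tested, 9 lower and 5 higher, with 3 called lower and a median of -0.58. For this list and those below, the shares over all named genes tested are 2.46% called lower and 1.35% called higher. Plau, the urokinase gene whose protease makes plasmin, was called on a probe that was not well above background in knockouts and was at least 2.02-fold lower (limma adjusted p = 0.0233); its bright probe had too few usable control spots to test. Lcn2, whose protein binds MMP9, fell by 1.82 (adjusted p = 0.0302). Pcsk5, a proprotein convertase, fell by 2.12 on its brightest probe (adjusted p = 0.0418), while another of its probes was higher by 1.41 (adjusted p = 0.498). A dimmer probe of Cd44, a surface docking site of MMP9, fell by 1.48 (adjusted p = 0.0369), and Klk1, a tissue kallikrein, was higher by 2.51 without a call (adjusted p = 0.181).

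Cytokines that induce metalloproteinases, with their receptors, were lower in 12 of 15 tested genes of 17, with a median of -1.29. The 3 called genes were Osm, the oncostatin M gene (-2.45, limma adjusted p = 0.0319), Hgf (-3.05, adjusted p = 0.0357) and Tgfb1 (-1.49, adjusted p = 0.0468). A dimmer probe of Il6st, the shared receptor chain of this cytokine family, fell by 1.31 (adjusted p = 0.0339). A dimmer Hgf probe was called as well (-4.73, adjusted p = 0.0339), with knockout 1 (47.2) not well above background. By brightest tested probe, differences larger than those of the 3 called genes but without a call were those of Il11 (-4.27, adjusted p = 0.124), Il6 (-4.05, adjusted p = 0.0671) and Il1a (-3.09, adjusted p = 0.0799). For Il6 and Il1a, knockout 1 (91.4 and 23.6) was not well above background. Il11 gave 28198, 41313 and 40966 in controls and 399, 6799 and 6912 in knockouts, with knockout 1 far below the others, as for Mmp10.
AP-1 and ETS factors, which bind metalloproteinase promoters, were lower in 6 and higher in 6 of the 12 tested genes of 14, with none called and a median of 0.07. The largest differences were those of Fosl1 (-1.47, adjusted p = 0.383), Etv4 (-1.42, adjusted p = 0.0800) and Atf3 (1.36, adjusted p = 0.125). For Fosl1, knockout 1 (60.5) was not well above background. The substrates in matrix and at the cell surface were lower in all 14 tested genes of 16, with a median of -0.59. With outlier spots kept all 16 could be tested, and Cdh1, the E-cadherin gene, was the 1 that was higher (1.46, adjusted p = 0.139), with no overlap between groups. The 3 called were Spp1, the osteopontin gene (-2.96, adjusted p = 0.0331), and the laminin chains Lama1 (-2.67, adjusted p = 0.0434) and Lamc1 (-1.16, adjusted p = 0.0441). Vcan, the versican gene, differed by -2.80 on its brightest probe (adjusted p = 0.0526), and its 2 other probes were called.
Without knockout 3 none of the calls on these activators, cytokines and substrates held (limma adjusted p 0.0510 to 0.114). Without control 2 only those of Plau (limma adjusted p = 0.0451) and 1 Vcan probe (0.0376) held. Without control 3 only that of the same Vcan probe did (0.0184). Pcsk5 could not be tested without either control. The call of Lamc1 held in no fit that left out 1 array.

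In RNA pooled over many cells, fewer cells of a type and less RNA per cell cannot be told apart. The series text speaks of samples separated by flow, so whether the RNA is that of whole tissue is not clear. A sorting step would change what marker sums mean. Marker sums, the summed signals of a list over the 75th percentile of the array, are given beside the genes above, and their part in these results was not tested. Beside Mmp2, Mmp3, Mmp13, Mmp14 and Timp1, the sum of 10 fibroblast markers was 35.2 to 38.2 in controls and 15.7, 25.2 and 26.2 in knockouts 1 to 3. Of the 8 fibroblast markers tested 7 were lower, and Pdgfrb was called (-1.17, limma adjusted p = 0.0395). Beside Mmp8 and Mmp9, the neutrophil markers S100a8 (-3.92), S100a9 (-3.73), Retnlg (-4.47), Cxcr2 (-1.93) and Camp (-1.20) fell, while Ltf rose (3.66, adjusted p = 0.0299). Of the 12 neutrophil markers 10 were tested, 6 lower and 4 higher. With outlier spots kept 11 were tested, 6 lower and 5 higher, with a median of -0.20. Itgam, Csf3r and Trem1 differed by 0.17 to 0.27, Ngp was not well above background on any array, and the neutrophil sum overlapped between groups (38.4 to 43.2 and 35.7 to 40.9). Without knockout 3 none of these marker calls held (limma adjusted p 0.0521 to 0.0874), and Ltf could not be tested. Without control 2 or control 3 none held either (limma adjusted p 0.0514 to 0.111), and S100a8 and Retnlg could not be tested.
Beside Mmp12, the sum of 12 macrophage markers was 24.7 to 34.4 in controls and 16.6 to 22.7 in knockouts, with 8 of 9 tested markers lower and none called. Endothelial markers summed to 8.60 to 10.4 and to 2.79 to 6.10, with all 7 tested lower and none called. Beside Mmp7, the sum of 12 epithelial markers was 27.0 to 83.1 in controls and 94.8 to 124 in knockouts, with all 11 tested markers higher and none called. The Paneth cell sum overlapped between groups (7.95 to 20.7 and 17.9 to 23.2), as did that of squamous epithelium (8.61 to 11.3 and 11.2 to 12.3). The smooth muscle sum was 51.5 to 63.5 and 70.1 to 83.6. The median differences were -0.77 for fibroblast, -0.75 for macrophage, -0.70 for neutrophil, -1.17 for endothelial and 1.16 for epithelial markers.

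**Figure D5:**
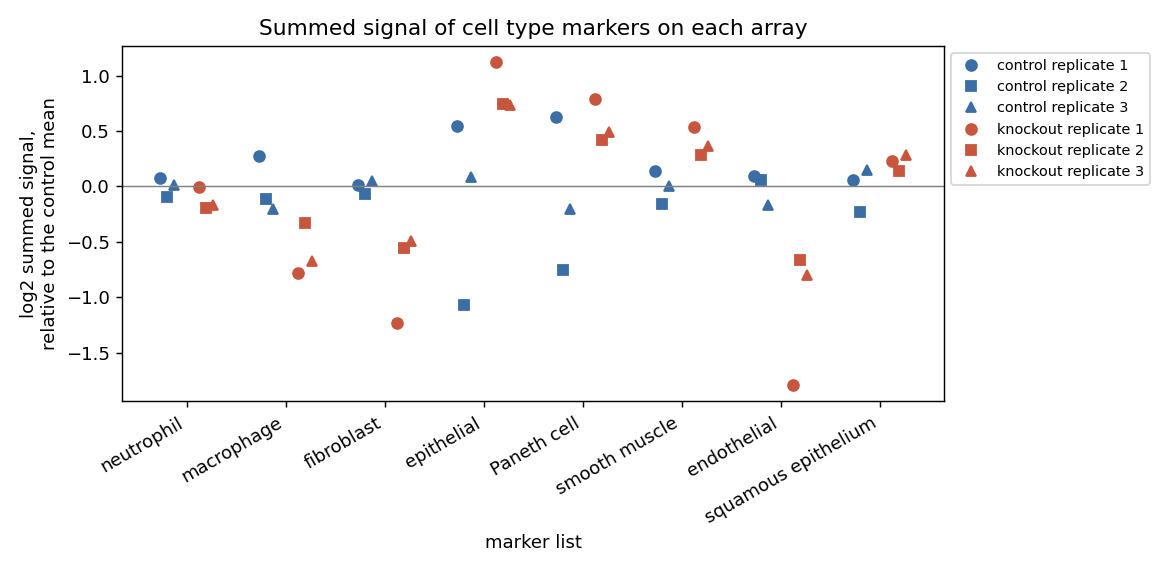
Log2 of the summed signal of 8 marker lists on each array relative to the mean of the 3 controls (vertical axis), by list (horizontal axis); blue marks controls, red knockouts and the shape the replicate. Fibroblast, macrophage and endothelial sums are lower in all 3 knockouts than in all controls, epithelial and smooth muscle sums are higher, and neutrophil, Paneth cell and squamous sums overlap.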

How the data were processed

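Colon RNA of 3 control and 3 Islr knockout mice was read on 1 array each. The deposited processed signals are an intensity on a linear scale, background-subtracted and detrended by Agilent Feature Extraction 11.5.1.1 on design 074809, per the file headers, with no scaling across arrays. The submitters' processing notes name version 10.7. The labels name Cy3 and a green column, whereas the files hold the red channel, which was used. The series' value table, also intensities as deposited, matched these signals (log2 r of at least 0.999999) and served as an alternative.

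Signals were put on the log2 scale and the 75th percentile of non-control spots of each array was subtracted. Outlier spots were treated as missing and spots of a probe averaged. Testing required a probe to be well above background in every array of either group, with at least 2 usable values per group. Groups were compared with limma 3.58.1 (lmFit, eBayes) in R 4.3.3 at a 5% false discovery rate, all 6 arrays in the fit. The fit was tested on simulated data: of 200 changed probes among 35351 it recovered 31.5%, and 61.0% of those with a change of 2 or more (log2). Array number limits the precision.

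RefSeq accessions named 33767 probes (59.7%). The text names Islr, every probe of the 10 genes, called genes of the fixed lists with at most 3 of the largest differences per list, and the 3 nearest genes per member. A gene is taken by its brightest tested probe. The members and lists were chosen with earlier results of these data known. The alternatives were median centring, quantile normalization, normexp background correction (offset 50), outlier spots kept, other filters on dim probes, array weights, the value table and each array left out.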

Additional observations from a re-analysis of the deposited data

How the results depend on the processing

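Of 155 alternative values of the tested probes of these genes, 126 kept their direction and their side of the threshold. A further 25 lost a call, 4 gained one and none turned sign, and the cause was not tested. Only the 6 called probes could lose a call, so the 126 include values of probes that were never called. With 1 array left out, the call held in 5 of 6 fits for Mmp8 and 3 of 6 for Mmp14. It held in 1 of 4 for Mmp2, 1 of 6 for the brighter Mmp9 probe, and 1 of 4 and 1 of 6 for the 2 called Mmp12 probes. The called genes numbered 5, against 2 without a filter on dim probes, 2 with probes well above background on all 6 arrays and 0 to 4 when 1 array was left out, 0 of them without control 2. Of all named genes tested, 2.46% were called lower, against 0.664% without that filter and 2.02% above background on all 6 arrays. When 1 array was left out, that share was 0.139% to 2.57%. The median difference of the tested genes of this set, -2.62, ranged from -3.15 to -1.99 with 1 array left out. Islr kept its fall, -2.58 to -2.34, with its call lost without knockout 3 (-2.39). The 9 genes without overlap, all lower, became 8 with normexp and 9 to 10 with 1 array left out, where the tenth, without knockout 1, was Mmp7, higher in knockouts. With outlier spots left out, a count added after seeing the data, the genes without overlap were 7 of 8. The 18.8% of all named genes given above is for all 6 arrays with outlier spots kept. No such share is given for the other settings, and smaller groups separate more easily.

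All calls on the array numbered 1403, against 2249 with median centring, 2185 with quantile normalization, 2545 with normexp, 484 without a filter, 7320 with array weights, 2274 from the value table, and 40 (without knockout 3) to 2114 (without control 1). Calls among 131 tested genes of the lists numbered 16, against 27 with median centring, 27 with normexp, 7 without a filter, 41 with array weights and 0 to 17 with 1 array left out. Of all named genes tested, 2.46% were called lower and 1.35% higher. The shares were 4.1% and 1.97% with median centring, 3.95% and 3.37% with normexp, and 0.664% and 0.28% without a filter. With array weights they were 10.4% and 11.4%. With 1 array left out they were 0.139% to 2.57% and 0.0199% to 3.59%. Against Timp1, Mmp9 came to -0.02 with normexp, and Mmp12 turned to 0.42 with normexp and, with arrays left out, ranged from -1.0 to 0.30, Mmp2 from -0.63 to 0.23 and Mmp14 from -0.52 to 0.56.

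No paired analysis was possible because replicate numbers only name the animals. Signals near background limit Mmp7, the dimmer Mmp12 probes, and Mmp8 and both Mmp9 probes in knockout 1.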
